A study of Drosophila melanogaster with 6 samples.

Results

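MtnB, a metallothionein gene, and Fst (Frost), a gene named for its response to cold, were followed across 6 Affymetrix arrays of whole adult Drosophila melanogaster. The 2 genes were found by their symbols in the authors' deposited table of mutant against control, each with 1 probe set, out of 251 genes in that table and 18769 probe sets tested on the array. They were selected on the contrast described here, since the table lists only probe sets that the authors had picked for a difference between the same arrays. Their levels and differences are therefore given as a description, with no test.

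The arrays comprised 3 labelled DHR96 mutant and 3 of the strain Canton S, which the design text calls genetically matched. Hr96, formerly called DHR96, encodes a nuclear receptor known in the fly for roles in lipid and xenobiotic metabolism. All adults had been kept for 7 days on standard fly food, with no metal or cold treatment in the labels, and 6 ug of total RNA was labelled per sample. The labels give neither the DHR96 allele nor the sex of the animals, and they do not say whether the arrays of a group came from separate collections, so the spread between arrays may be technical in part. Whole animals were used, so a change in the number of cells that express a gene and a change in RNA per cell cannot be told apart.

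Metallothioneins are small cysteine-rich proteins that bind copper, zinc and cadmium. In flies their genes are switched on when metal rises, through the metal-responsive transcription factor MTF-1, and MtnB responds above all to cadmium and copper. Frost encodes a secreted protein with mucin-like features, and its transcript is known to build up in flies recovering from cold. The authors' deposited table attaches terms for metal ion homeostasis and copper ion binding to MtnB and the term for response to cold to Fst.

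The array medians lay between 470.4 and 484.2. The deposited intensities came already normalized across arrays, so these alike medians say nothing about brightness before that step. The probe set of Hr96 itself was brighter in the mutant, at 928 to 985 on the DHR96 mutant arrays against 498 to 546 on the Canton S arrays, and its position relative to the mutation is not known here, so it does not check the labels. The Dap control, a bacterial RNA added before labelling, read 473 and 519 on DHR96 mutant replicates 2 and 3, against 1217 on DHR96 mutant replicate 1 and 1007 to 1208 on the Canton S arrays. The ratio of 3' to 5' probe sets of actin, GAPDH and eIF-4a, a sign of RNA quality, was highest on DHR96 mutant replicate 2, at 2.61, 1.42 and 2.70, while the other arrays ranged over 2.23 to 2.46, 1.299 to 1.36 and 2.21 to 2.51.

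MtnB, which stores and detoxifies metal ions, was brighter on every DHR96 mutant array than on any Canton S array. It read 2274, 3041 and 1771 on DHR96 mutant replicates 1, 2 and 3, against 879, 583 and 571 on Canton S replicates 1, 2 and 3. The mutant arrays differed among themselves, replicate 2 being the brightest and replicate 3 the dimmest, and among the controls replicate 1 stood above the other two. The group means were 2362 ± 639 for the DHR96 mutant and 677 ± 174 for Canton S (SD, n = 3 each). This corresponded to a difference of 1.77 on the log2(intensity + 16) scale, mutant minus Canton S (SE 0.218), or 3.41-fold. Taking single arrays against each other, the smallest ratio of a mutant to a Canton S array was 2.02 and the largest 5.33.

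Fst was the opposite case: its probe set was dimmer on every DHR96 mutant array than on any Canton S array. It read 1094, 602 and 1110 on DHR96 mutant replicates 1, 2 and 3, against 1780, 1601 and 2925 on Canton S replicates 1, 2 and 3. A single array stood apart in each group, DHR96 mutant replicate 2 below its group and Canton S replicate 3 above its own. In both groups Fst was lowest on replicate 2 and highest on replicate 3, though DHR96 mutant replicates 1 and 3 nearly tied. The means were 935 ± 288 for the DHR96 mutant and 2102 ± 718 for Canton S (SD, n = 3 each). The log2 difference was -1.16 (SE 0.284), so the mutant level was lower by 2.23-fold. The nearest pair of arrays, DHR96 mutant replicate 3 and Canton S replicate 2, differed 1.44-fold, and the farthest, DHR96 mutant replicate 2 and Canton S replicate 3, differed 4.85-fold.

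**Figure D1:**
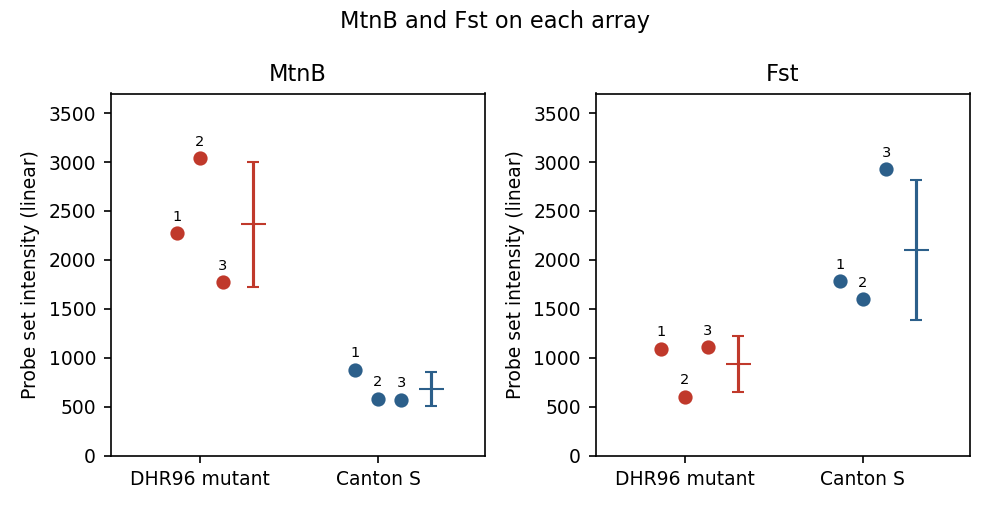
Probe set intensity (linear scale) of MtnB (left) and Fst (right) on each array, DHR96 mutant in red and Canton S in blue, with replicate numbers above the points and the mean ± SD (n = 3) beside them. The MtnB values of the mutant, 1771 to 3041, lie above those of Canton S, 571 to 879, and the Fst values of the mutant, 602 to 1110, lie below those of Canton S, 1601 to 2925.

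The absence of overlap was common across the array. The 3 mutant values all lay above the 3 Canton S values, as for MtnB, for 13.9% of the 18769 probe sets, and all below, as for Fst, for 17.0%. The limma model fitted to all probe sets placed 3.29% past an adjusted p of 0.05 as higher and 3.67% as lower in the DHR96 mutant. These 1306 probe sets became 287 without Canton S replicate 1, between 426 and 803 without any other array, 240 with the replicate number as a block and 31 with the spike-in level as a block. Since both genes were chosen from this contrast, nothing is read from their place among these shares.

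The brightness of both genes was set against that of all probe sets on each array. Detection calls were not used, so whether either gene was silent in a group was not tested. MtnB was brighter than 84.8% to 92.0% of probe sets on the DHR96 mutant arrays and than 56.3% to 69.2% on the Canton S arrays. Fst was brighter than 57.5% to 75.5% of probe sets on the DHR96 mutant arrays, against 83.0% to 91.3% on the Canton S arrays. Fst in the mutant and MtnB in Canton S therefore stood above the median probe set on all their arrays. The lowest intensities of the arrays, 97.2 to 103.4, are those of single probe sets and do not mark the level of a silent gene.

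What the genes shared, apart from opposite directions, was a wide spread between arrays of the same group. The pooled within-group SD was 0.366 on the log2 scale for MtnB and 0.477 for Fst, against a median of 0.0609 over all probe sets tested. Among the 1000 probe sets closest in brightness to MtnB, 12 had a larger within-group SD, and among those closest to Fst, 6 did. The spread was not confined to the mutant: the SD of MtnB was 0.387 within the DHR96 mutant and 0.343 within Canton S, and that of Fst 0.493 within the DHR96 mutant and 0.461 within Canton S. The score in the authors' deposited table divides a difference by its spread, which works against probe sets as variable as these. No probe set in that table had a fold close to no change, so a floor on the fold may also have been set. Variable probe sets pass such a floor more easily, and how these sides of the selection balance was not tested. Being listed is therefore no support for the differences of MtnB and Fst. In size, the group difference of MtnB was 4.84 times its within-group SD and that of Fst 2.42 times its own.

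**Figure D2:**
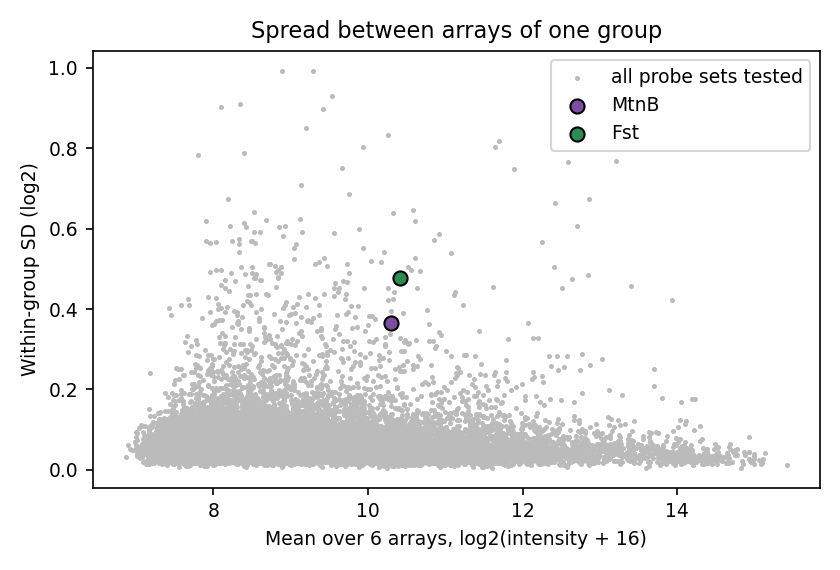
Within-group SD on the log2 scale (vertical) against the mean over the 6 arrays of log2(intensity + 16) (horizontal) for all 18769 probe sets tested (grey), with MtnB (purple, SD 0.366) and Fst (green, SD 0.477) marked. Both lie far above the bulk of probe sets of their brightness, whose median SD was 0.0513 around MtnB and 0.0506 around Fst.

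The arrays did not order the genes alike. Within the DHR96 mutant, the array with the most MtnB (replicate 2) had the least Fst. The array with the least MtnB (replicate 3) had the most Fst, though its 1110 was close to the 1094 of replicate 1. Within Canton S, replicate 3 had the most Fst and the least MtnB, though its MtnB of 571 was close to the 583 of replicate 2. Both genes were lower on Canton S replicate 2 than on Canton S replicate 1. The deviations of the genes from their group means, on the log2 scale, correlated at r = -0.67 over the 6 arrays, which share the group means removed from them and are too few for more than a description. DHR96 mutant replicate 2, where MtnB was highest and Fst lowest, is also the array with the highest 3' to 5' ratios. Canton S replicate 1, the brightest of its group for MtnB, had the lowest actin and eIF-4a ratios of that group, 2.23 and 2.21. Its GAPDH ratio, 1.31, lay between those of the other Canton S arrays. Whether the ratios bear on either gene was not tested. Without DHR96 mutant replicate 2 the log2 difference was 1.57 for MtnB and -0.87 for Fst, against 1.77 and -1.16 with all arrays.

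The authors' own comparison ranks the genes differently by size and by score. In the authors' deposited table MtnB had a signed fold of 3.49, rank 3 by fold of the 180 probe sets listed as higher in the mutant, and a SAM score of 4.38, rank 18 among them. Fst had a signed fold of -2.25 in the authors' deposited table, rank 7 by fold of the 80 listed as lower, but with a score of -2.33 its rank by score was 68. The score is the mean log2 difference over a denominator that grows with the spread between arrays. The authors' deposited table gives Fst a denominator of 0.503, the highest of its 260 probe sets, and MtnB one of 0.411, rank 7, where the median was 0.198. The q-value in the authors' deposited table was 0% for MtnB, as for 100 of the 180 higher probe sets, and 1.51% for Fst, where the highest q-value of the table was 2.18%.

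**Figure D3:**
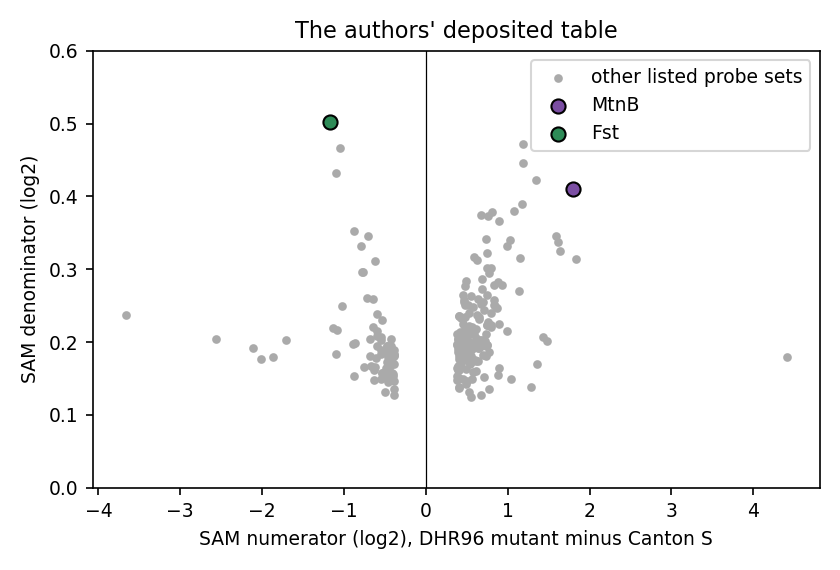
SAM denominator (vertical, log2 units) against SAM numerator (horizontal, mean log2 difference, DHR96 mutant minus Canton S) for the 260 probe sets of the authors' deposited table. Fst (green, -1.17 and 0.503) has the highest denominator, and MtnB (purple, 1.80 and 0.411) combines a large numerator with rank 7 by denominator.

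The differences kept their direction in every setting tried. For MtnB, the log2 difference ranged over 1.70 to 1.80 with other pseudocounts, scalings or blocks and 1.57 to 1.97 with an array left out. For Fst it ranged over -1.17 to -0.88 and over -1.32 to -0.87. The smallest Fst differences came without DHR96 mutant replicate 2 (-0.87) and without Canton S replicate 3 (-0.89), the arrays that stood apart. With the spike-in level as a block, the difference rests on DHR96 mutant replicate 1 set against Canton S, and it was 1.75 for MtnB (SE 0.331) and -0.88 for Fst (SE 0.403). With arrays left out or set apart, or with another pseudocount, the direction was fixed beforehand by the absence of overlap. The replicate block is balanced, so it returned the same differences as the main fit. The scalings acted on arrays already normalized and could shift them little. The constant direction is therefore no sign of stability.

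**Figure D4:**
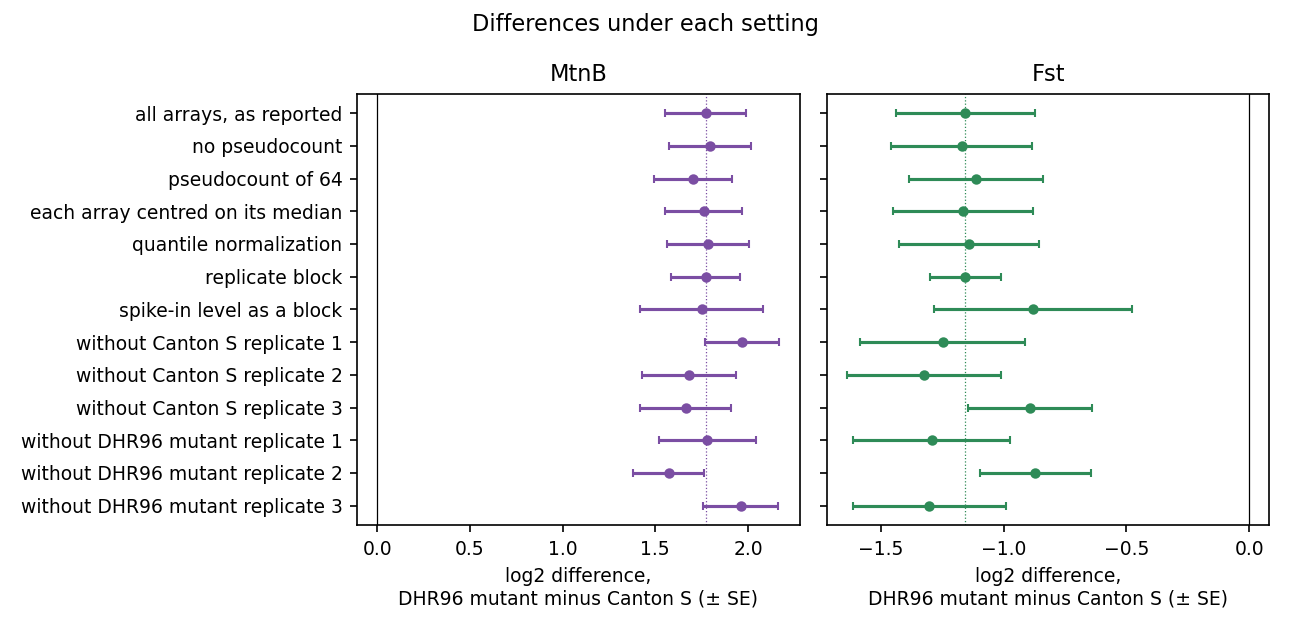
Log2 difference, DHR96 mutant minus Canton S, of MtnB (left) and Fst (right) under each setting, with bars of ± 1 SE and a dotted line at the value from all arrays (1.77 for MtnB and -1.16 for Fst). MtnB lies between 1.57 and 1.97 and Fst between -1.32 and -0.87, the least negative being without DHR96 mutant replicate 2.

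Few other genes of metal or cold biology could be named. The deposited table holds 260 probe sets, 1.39% of those tested, with 0.959% listed as higher and 0.426% as lower in the mutant. Of 34 genes of metal handling (metallothioneins, MTF-1, copper, zinc and iron transporters, ferritins), the deposited table holds 1, MtnB, and of 26 genes of cold and heat shock (Fst, the Hsp genes, the Turandot genes) it holds 1, Fst. That each count was at least 1 was fixed by the way the genes were chosen. It holds 0 of 15 listed genes of oxidative stress, while its own ontology terms place GstE1, a glutathione transferase gene listed as lower, under a response to stress or oxidative stress. Probe sets outside that table carry no gene names here, so the levels of MtnA, MtnC, MtnD, MtnE, MtnF, MTF-1 and the heat shock genes were not analysed here. By the gene order of Release 6 of the fly genome, MtnB lies between MtnC, with 5 protein-coding genes in between, and MtnE, with 2 in between, and MtnD adjoins MtnE. Metallothionein genes resemble each other in sequence, and whether the MtnB probe set also takes up signal from its relatives was not tested.

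By the same gene order, MtnB and Fst lie on the same chromosome arm with 1297 protein-coding genes between them. The nearest neighbours are CG46441 and Or92a, an odorant receptor gene, for MtnB, and Dh44, a diuretic hormone gene, and Dhc1 for Fst. None of these, and 0 of the 10 protein-coding genes on each side of either gene, is in the deposited table. One more gene in that table has a copper-binding term: stw (straw), a laccase-type copper oxidase of cuticle tanning. It read 1709, 1862 and 1967 on DHR96 mutant replicates 1, 2 and 3 against 1187, 1274 and 1100 on Canton S replicates 1, 2 and 3. The log2 difference was 0.63 (SE 0.0679). The groups did not overlap, as for 13.9% of all probe sets tested with the mutant higher. The SD of stw was 129 in the DHR96 mutant and 87.1 in Canton S, smaller than the 639 and 174 of MtnB. The highest mutant array of stw, replicate 3, was the lowest of the mutant arrays for MtnB.

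Some markers of fat body and midgut are also in the deposited table, where a difference between the groups was the condition for being listed. Of 5 fat body markers, 4 are in the deposited table (Fbp1, Fbp2, Lsp2 and Lsp1gamma), all among the 0.959% of probe sets listed as higher, with a summed intensity of 8295 to 12159 on the DHR96 mutant arrays against 3395 to 4183 on the Canton S arrays. Lsp2 gave the largest share, with 4535 to 5348 on the DHR96 mutant arrays and 1346 to 2112 on the Canton S arrays. The remaining fat body marker, Yp1, was not read. The summed intensity of the 4 was highest on DHR96 mutant replicate 3, where MtnB was lowest of its group. Of 7 midgut markers, 2 are in the table and they went opposite ways. Jon99Ci, a digestive protease gene, read 5078 to 5756 on the DHR96 mutant arrays against 8179 to 8639 on the Canton S arrays, and Npc1b, a sterol uptake gene, read 1052 to 1148 on the DHR96 mutant arrays against 406 to 456 on the Canton S arrays. Their summed intensity, 6130 to 6904 on the DHR96 mutant arrays against 8613 to 9055 on the Canton S arrays, is carried by Jon99Ci, and the other 5 midgut markers were not read. The part of these markers in the differences of MtnB and Fst was not tested. The table holds 0 of the markers of Malpighian tubule, muscle, testis, ovary, eye and neuron, so the labelled source could not be checked against them.

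The genes most like each in their array to array deviations were sought among the 249 other named genes, by Pearson's r over the 6 arrays after removing the group means. For MtnB they were the lysosomal alpha-mannosidase gene LManVI (r = 0.97), the alkaline phosphatase gene Alp9 (0.97), the cytochrome P450 gene Cyp4e3 (0.96), LManV (0.95) and the hnRNP gene Hrb87F (0.90). Other than Cyp4e3, these varied far less than MtnB, with within-group SDs of 0.0886 to 0.140. Cyp4e3, at 0.314, varied nearly as much and read 2166, 2364 and 1518 on DHR96 mutant replicates 1, 2 and 3 against 1348, 941 and 951 on Canton S replicates 1, 2 and 3. For all of these genes, as for MtnB, the brightest arrays of the groups were DHR96 mutant replicate 2 and Canton S replicate 1. The choice by r favours such genes, so this is no further result.

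For Fst the most alike were CG33091 (r = 0.98), CG3884 (0.98), CG13116 (0.96), the glutathione transferase gene GstE7 (0.94) and Tspo (0.92), which encodes a mitochondrial outer membrane protein. All of them, like Fst, were lowest on DHR96 mutant replicate 2 and highest on Canton S replicate 3, a pattern that their choice by r favours. GstE7, with a within-group SD of 0.435, read 1892, 996 and 1909 on DHR96 mutant replicates 1, 2 and 3 against 2656, 3004 and 4036 on Canton S replicates 1, 2 and 3. Such values of r are not rare with 6 arrays: r reached 0.9 against MtnB for 1.61% of the named genes and 1.78% of all probe sets, and against Fst for 2.41% and 2.26%. The named genes were thus about as often alike as probe sets at large.

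**Figure D5:**
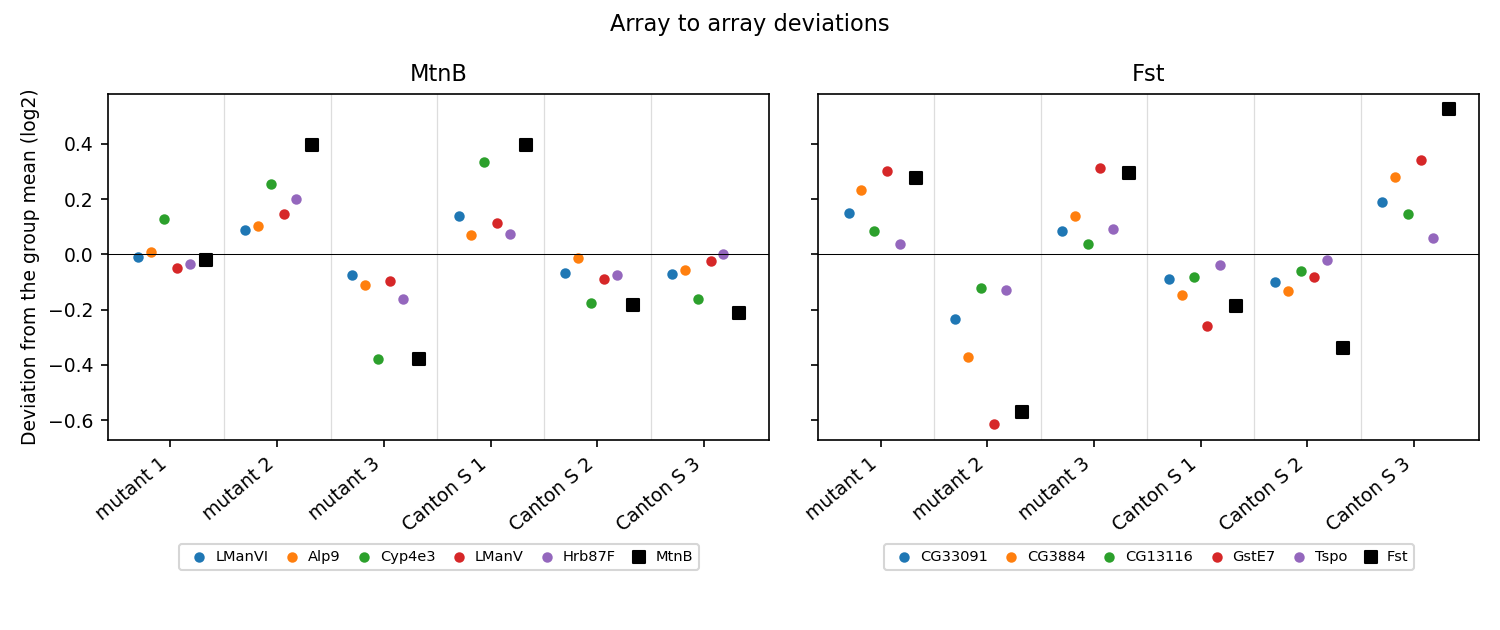
Deviation of each array from its group mean, on the log2 scale (vertical), for MtnB and its 5 most alike named genes (left) and for Fst and its 5 (right), with the DHR96 mutant arrays left of the Canton S arrays and black squares for MtnB and Fst. MtnB is highest above its group mean on DHR96 mutant replicate 2 and Canton S replicate 1 (0.40 on each), and Fst ranges over -0.57 on DHR96 mutant replicate 2 to 0.52 on Canton S replicate 3.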

How the data were processed

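The deposited intensities, on a linear scale, came already normalized across arrays by the authors, since the quantiles of the arrays nearly coincide. MAS5 is named in the submitters' processing notes, without saying for which step. The authors' deposited table gives, per the file headers, the SAM score with its log2 numerator and denominator, plus the fold with a sign and the q-value (%). Its numerator equalled the mean log2 difference, mutant minus Canton S, for both genes within 9.77e-11. Detection calls were not used, and the number of arrays limits the precision.

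The arrays hold 18952 probe sets, of which 183 are the manufacturer's controls and were not tested. limma 3.58.1 (R 4.3.3; lmFit, then eBayes with an intensity trend) was fitted to log2(intensity + 16) of the other 18769, group as the only term, with Benjamini-Hochberg adjustment. The fit was tested on simulated data with independent noise for each probe set. Such data leave out variation shared within an array, so they do not vouch for the counts above. List members were matched by current or former symbol, and 1 ovary marker, nos, was not matched. Genes were named from the deposited table, through CG numbers and the Release 6 gene table (251 of 260 probe sets matched; 3 that name several genes stayed unnamed; 1 probe set per gene, the brightest). The sources used here do not give the files' genome build, so no coordinates are printed. The genes and lists were chosen with earlier results of these data known. Named were MtnB, Fst, list members in the table, flanking genes and the 5 genes most alike to each; stw and Hr96 were added. Same-numbered arrays had deviations correlating at 0.19, -0.22 and -0.24. These values gave no sign of pairing by number over all probe sets, but so few arrays cannot exclude it. Tests of the gene lists had been planned and were not run, since probe sets outside the table are unnamed.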

Additional observations from a re-analysis of the deposited data

How the results depend on the processing

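The MtnB and Fst differences ranged over 1.57 to 1.97 and -1.32 to -0.87 with an array left out, where their sign was fixed in advance by the lack of overlap and 1 array of 3 can shift a mean only so far. With other pseudocounts, scalings and blocks, where the sign was fixed or could hardly change, they ranged over 1.70 to 1.80 and -1.17 to -0.88. The count of probe sets past the threshold was 1306 with all arrays, 240 with the replicate block, 31 with the spike-in level as a block, 813 by eBayes without a trend, and 287 to 803 with an array left out, where fewer arrays were fitted. Without Canton S replicates 1, 2 and 3 the counts were 287, 803 and 494, and without DHR96 mutant replicates 1, 2 and 3 they were 450, 587 and 426. With the replicate block the differences were 1.77 for MtnB (SE 0.187) and -1.16 for Fst (SE 0.146). Without it the SEs were 0.218 and 0.284, and Fst followed the same order of replicate numbers in both groups. Whether the replicate numbers pair the arrays was not settled. The cause of the other changes in the count was not tested. Intensities were not taken to 0 by the authors' background treatment, so folds may be too small, and n = 3 limits the precision of both.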
